A study of Mus musculus with 6 samples.

Results

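The 10 imprinted genes described here act on the growth of the mouse embryo: H19, Igf2, Igf2r, Dlk1, Meg3, Peg3, Cdkn1c, Grb10, Mest and Plagl1. They were taken from the array by the gene symbols of the platform annotation, which names 18935 genes, and had 17 probes among 34967 transcript probes. Of these, 15 probes carried 1 symbol and 2 carried 2 symbols. A probe was tested if none of the arrays of at least 1 group flagged it as near background, and 15 of the 17 probes did so, as did 21243 probes in all. The probes were picked by gene symbol alone, but the list of genes was chosen with earlier results of these data known.

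Gene expression was measured in mouse embryos at embryonic day 9.5, in the part of the body behind the forelimb pit, with 1-colour oligonucleotide arrays. The 3 Fkbp8 null samples were numbers 6, 9 and 11, and the 3 wild-type samples were numbers 7, 10 and 12. The stock for both genotypes mixed C57BL/6 with 129S5/SvEvBrd, written B6;129S5, and the labels give an average of 21.6 somite pairs for every sample. Fkbp8 encodes a membrane-anchored immunophilin, and the comparison concerns mutants in which the posterior neural tube fails to close. The genotype label reads null and does not say which part of the gene is deleted. The labels do not say whether a sample is 1 embryo, and every p-value given here reflects the spread among these 6 samples alone. The tissue is labelled as posterior neural tube but its source as anterior, and the dissection protocol is for the posterior part.

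An imprinted gene is read mainly from the copy inherited from a single parent, and the choice is kept by DNA methylation at a control region. Paternally expressed members such as Igf2, Dlk1, Peg3, Mest and Plagl1 mostly favour growth of the embryo. Maternally expressed members such as H19, Igf2r, Cdkn1c, Grb10 and Meg3 mostly restrain it. H19 and Igf2 are neighbours that share enhancers, and Dlk1 and Meg3 are neighbours under a control region of their own. The arrays measured the sum over both parental copies and cannot tell them apart. In tissue of mixed cells, fewer cells of a type and less RNA per cell cannot be told apart either.

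Several of these transcripts are also the source of microRNAs, small RNAs that recognise their targets by the seed, bases 2 to 8. In the RefSeq annotation of GRCm38.p6, 9 mature microRNAs lay inside 4 of the 10 genes. They are shown because a level of the host transcript is the nearest quantity these arrays hold for them; the microRNAs themselves were not measured. The seed is in capitals.
miR-675-5p: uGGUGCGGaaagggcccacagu
miR-675-3p: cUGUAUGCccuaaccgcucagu
miR-483-5p: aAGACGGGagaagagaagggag
miR-483-3p: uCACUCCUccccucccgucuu
miR-335-5p: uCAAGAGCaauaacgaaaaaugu
miR-335-3p: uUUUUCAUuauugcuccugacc
miR-770-5p: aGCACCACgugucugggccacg
miR-770-3p: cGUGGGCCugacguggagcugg
miR-1906: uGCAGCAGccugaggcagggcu
The miR-675 pair lies in H19, at chr7:142577112-142577133 and chr7:142577078-142577099 on the minus strand. The miR-483 pair lies in Igf2, at chr7:142654968-142654989 and chr7:142654932-142654952 on the minus strand. The miR-335 pair lies in Mest, at chr6:30741314-30741336 and chr6:30741354-30741375 on the plus strand. The miR-770 pair lies in Meg3, at chr12:109563710-109563731 and chr12:109563744-109563765 on the plus strand, and miR-1906 lies there at chr12:109544588-109544609. No 2 of the 9 share a seed. A further feature of the Meg3 region is its size as a microRNA source, with 58 annotated hairpins between Dlk1 and Dio3.

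The promoters of 8 of the 10 genes were in the RefSeq promoter table, as 15 windows of 300 bases (250 before to 50 after a transcript start). The median number of CG dinucleotides was 13 per window, against 7 over all 32851 windows of 27025 genes. The median ratio of observed to expected CG was 0.59, against 0.38 over all windows. Grb10 had the window with the most CGs, 45, and its other window had 9. The single Igf2r window had 34 and the single Plagl1 window 26. The 4 Igf2 windows had 2, 14, 24 and 7, so alternative starts of the same gene differed in this feature. GGGGCCCC, letters that the zinc-finger protein encoded by Plagl1 is known to bind and that read the same on both strands, was found in 1 of the 15 windows, that of Peg3. Over all windows the share was 1.08%.

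The targeted gene was read first. Fkbp8 had log2 signals of 6.23, 6.29 and 6.42 in null samples 6, 9 and 11 and of 7.66, 7.92 and 8.68 in wild-type samples 7, 10 and 12. It was near background on all 3 null arrays, so its signal was at least 3.33-fold lower in the null samples. Its unadjusted limma p was 5.54e-05 and its Benjamini-Hochberg adjusted p 0.392. Between 62.8% and 68.4% of the transcript spots were above background on each array. In wild-type sample 10 the brighter Xist probe had a log2 signal of 10.35, against 5.98 to 6.53 in the other samples, with the Y-linked Eif2s3y at 6.16 (against 8.63 to 8.90 elsewhere). Tissue markers that were tested were centred on their own mean log2 signal over the 6 arrays. In wild-type sample 10 the mean was -0.71 for 12 tail bud markers, -0.56 for 12 somite markers and 0.50 for 13 neural tube markers. For 8 primitive erythroid markers the centred mean was 0.71 in that sample, -0.61 in null sample 6 and -0.56 in wild-type sample 7, and for the tail bud markers it was 0.48 in wild-type sample 7. The centred mean was also 0.42 in null sample 9 for the somite markers and -0.35 in null sample 6 for the neural tube markers. Of the 13 neural tube markers, 11 had a negative difference between null and wild type and 2 a positive one, with a median of -0.19. Of these 13, 5 did not overlap between the groups, against 9.28% of all probes tested. The 12 somite markers gave 10 positive and 2 negative differences, with a median of 0.37, and 1 did not overlap. For the 12 tail bud markers these were 7 positive and 5 negative, with a median of 0.04, and 0 without overlap. The part of these markers in the members' values was not tested. Values without wild-type sample 10 are given beside those members whose direction turned without it. Of the posterior markers, the brightest were T, Fgf8 and Cdx2 for the tail bud, Foxc2, Twist1 and Foxc1 for the somites, and Msx1, Irx3 and Zic1 for the neural tube. T ranged from 3.37 to 32.5 times the array median, and Foxc2 from 11.0 to 52.0. Of 11 forebrain and midbrain markers, Otx2 was near background on all arrays, while Six3 read 12.8 to 17.4 times the array median. Of 8 trophoblast and decidua markers on the array, Tpbpa and Cts7 were near background on all arrays. A further 5 had a probe above background on all arrays of at least 1 group, so most of this list was detected.

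No member passed the test between null and wild type. Of the 15 probes tested with limma, 0 had a Benjamini-Hochberg adjusted p under 0.05, and 0 had an unadjusted p under 0.05. Over all 21243 probes, 0.00471% (1 probe, for Tm7sf3, named here after its value was seen) passed the adjusted threshold and 3.08% the unadjusted one. The groups did not overlap for 2 of the 15 member probes, against 9.28% of all probes tested. Differences of the members ran from -0.33 to 0.17 on the log2 scale (null minus wild type), 7 positive and 8 negative, with a median of -0.05. The median over all probes was 0.0022. The median size of the difference, ignoring sign, was 0.13 for the members and 0.09 for all probes. Probes of the paternally expressed members gave 1 positive and 4 negative differences with a median of -0.08. Those of the maternally expressed members gave 6 positive and 4 negative differences with a median of 0.03. Every member probe tested had the same adjusted p of 0.9999, and it is not repeated for each gene.

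**Figure D1:**
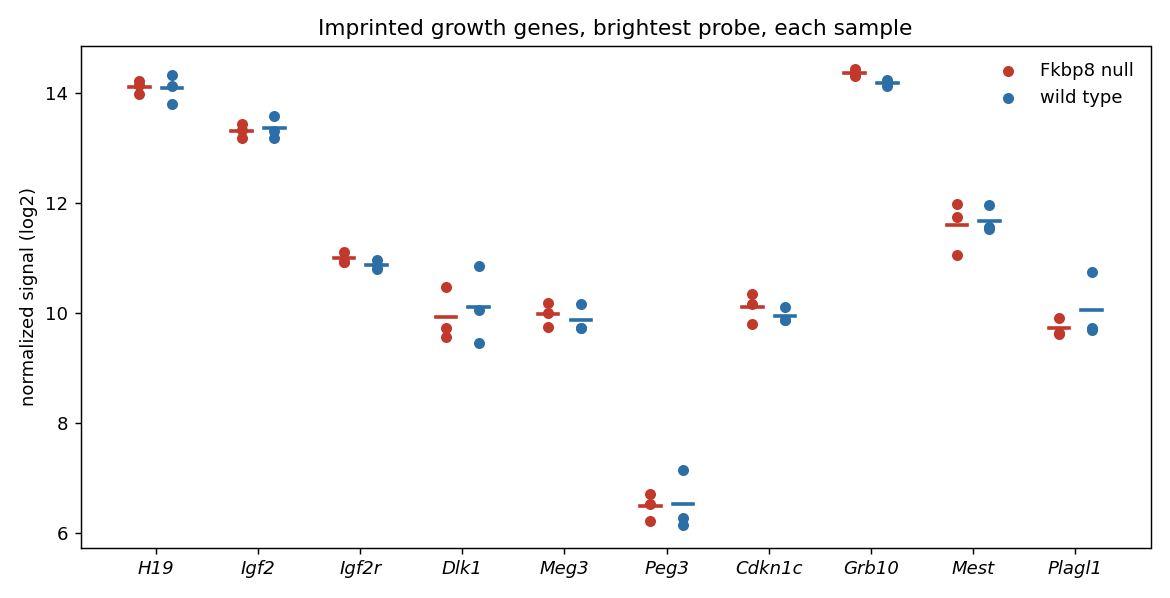
Normalized log2 signal of the brightest probe of each of the 10 genes (vertical axis) in the 3 Fkbp8 null samples (red) and the 3 wild-type samples (blue), with a bar at each group mean. The groups overlap for each gene except Grb10, and Peg3 lies lowest, near background on 3 of 6 arrays.

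H19, Igf2 and Grb10 gave strong signals on all 6 arrays. Brightness on an array also depends on the probe, so the levels of different genes are not ranked here. Values are the log2 of the background-subtracted intensity plus an offset of 50, normalized across arrays, and multiples of the array median are given beside them.

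H19, the maternally expressed long noncoding RNA, had log2 signals of 14.22, 14.15 and 13.98 in null samples 6, 9 and 11 on its brighter probe, and of 14.33, 13.81 and 14.14 in wild-type samples 7, 10 and 12. Both the highest and the lowest value were in wild-type samples, so the null samples lay within the wild-type range. In multiples of the array median the null samples stood at 294 ± 3.08 (SD, n = 3) and the wild-type samples at 301 ± 31.5 (SD, n = 3). The log2 difference was 0.03 ± 0.15 (SE), with a 95% interval from -0.31 to 0.36. Without wild-type sample 10 the difference was -0.12. The second H19 probe gave 11.47, 11.61 and 11.01 in the null samples and 11.36, 11.23 and 12.09 in the wild-type samples. Wild-type sample 12 was highest and null sample 11 lowest, and the groups overlapped. Its difference was -0.20 ± 0.24 (SE), of opposite sign to the first probe, with an interval from -0.75 to 0.36, and it was 0.069 without wild-type sample 12.

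Igf2, the paternally expressed growth factor, had log2 signals of 13.32, 13.44 and 13.18 in null samples 6, 9 and 11 and of 13.31, 13.19 and 13.58 in wild-type samples 7, 10 and 12. Wild-type sample 12 was highest, and the groups overlapped. The multiples of the array median were 172 ± 7.41 (SD, n = 3) in the null and 177 ± 26.9 (SD, n = 3) in the wild-type samples. The difference was -0.05 ± 0.13 (SE), with an interval from -0.34 to 0.25, the narrowest for a paternally expressed member. It was 0.06 without wild-type sample 12 and 0.02 without null sample 11.

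H19 and Igf2 were set against each other within each array, since both answer to the same enhancers. The log2 difference of H19 over Igf2 was 0.89, 0.71 and 0.80 in null samples 6, 9 and 11 and 1.02, 0.61 and 0.55 in wild-type samples 7, 10 and 12. The null samples lay inside the wild-type range. The group means differed by 0.07, and an exact two-sided permutation test over the 6 samples gave p = 0.7, where the smallest p possible was 0.1. With median scaling in place of quantile normalization that difference was -4.6e-04.

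Igf2r encodes the receptor that takes IGF2 to the lysosome for breakdown. Its log2 signals were 10.94, 11.12 and 10.94 in null samples 6, 9 and 11 and 10.96, 10.81 and 10.88 in wild-type samples 7, 10 and 12. Null sample 9 was highest, and wild-type sample 7 lay above the other 2 null samples. The range over the 6 arrays was 0.31, and the difference was 0.12 ± 0.10 (SE), with an interval from -0.11 to 0.35. A second probe is annotated to both Igf2r and Airn, the antisense transcript that silences the paternal Igf2r copy in the mouse. It was above background in null sample 6 only, at a log2 signal of 6.65, and was not tested.

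Grb10 encodes an adaptor that dampens signalling from the insulin and IGF1 receptors. On its brighter probe the log2 signals were 14.31, 14.45 and 14.33 in null samples 6, 9 and 11 and 14.20, 14.14 and 14.24 in wild-type samples 7, 10 and 12. All 3 null samples lay above all 3 wild-type samples. The multiples of the array median were 350.4 ± 23.6 (SD, n = 3) in the null and 319 ± 11.7 (SD, n = 3) in the wild-type samples. The difference was 0.17 ± 0.09 (SE), with an interval from -0.04 to 0.39, and the limma p of 0.101 before adjustment was the smallest of any member. Leaving out any 1 sample gave differences from 0.13 to 0.21, and cyclic loess in place of quantile normalization gave 0.058. The second Grb10 probe gave 7.13, 7.04 and 6.89 in the null samples and 6.91, 6.90 and 7.62 in the wild-type samples. Wild-type sample 12 was highest and the groups overlapped, with a difference of -0.13 ± 0.19 (SE), and of 0.11 without that sample.

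Cdkn1c encodes p57, an inhibitor of cyclin-dependent kinases. Its log2 signals were 9.81, 10.35 and 10.16 in null samples 6, 9 and 11 and 9.89, 10.11 and 9.88 in wild-type samples 7, 10 and 12. The lowest and the highest value were both in null samples, and the wild-type values lay between them. The difference was 0.15 ± 0.15 (SE), with an interval from -0.19 to 0.49. It was 0.032 without null sample 9 and 0.30 without null sample 6.

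Dlk1 encodes a transmembrane protein with repeats like those of Notch ligands, and its brighter probe varied most among the member probes. On its brighter probe the log2 signals were 9.73, 10.48 and 9.57 in null samples 6, 9 and 11 and 9.46, 10.05 and 10.85 in wild-type samples 7, 10 and 12. Wild-type samples were at both ends, number 7 lowest and number 12 highest, a range of 1.39. The difference was -0.19 ± 0.35 (SE), with an interval from -1.0 to 0.62, and it was 0.17 without wild-type sample 12. The second Dlk1 probe gave 7.49, 7.90 and 7.54 in the null samples and 7.35, 7.46 and 7.60 in the wild-type samples. Null sample 9 was highest, the groups overlapped, and the range was 0.55, narrower than on the brighter probe. The difference was 0.17 ± 0.13 (SE), or 0.042 without null sample 9.

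Meg3, the maternally expressed noncoding RNA beside Dlk1, had 4 probes. The brightest gave log2 signals of 9.75, 10.19 and 10.00 in null samples 6, 9 and 11 and of 9.73, 9.73 and 10.18 in wild-type samples 7, 10 and 12. Null sample 9 and wild-type sample 12 were close to each other at the top, and the difference was 0.10 ± 0.16 (SE). The second probe gave 7.74, 7.48 and 7.61 in the null and 7.94, 7.27 and 7.91 in the wild-type samples, with wild-type samples at both ends. Its difference was -0.10 ± 0.18 (SE), and -0.31 without wild-type sample 10. In that fit without wild-type sample 10 this probe alone of the members had an unadjusted p under 0.05, and 6.30% of all probes did. The third probe gave 7.36, 7.34 and 7.30 in the null samples and 7.44 and 7.58 in wild-type samples 7 and 12, its spot in wild-type sample 10 having been left out for its quality flag. Both wild-type values lay above all null values, and the difference was -0.18 ± 0.11 (SE) with an unadjusted limma p of 0.148. With the spot kept the difference was -0.088, and in multiples of the array median that spot read 1.67, below the null samples at 1.81 to 1.95. The fourth probe, left out in null sample 9, ranged from 7.01 to 7.21 over the other 5 samples, with a difference of 0.04 ± 0.11 (SE), and of -0.016 without wild-type sample 10. The 4 probes of Meg3 thus did not share a sign.

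Within each array, Meg3 was set against Dlk1 on their brightest probes. The log2 difference of Meg3 over Dlk1 was 0.01, -0.29 and 0.44 in null samples 6, 9 and 11 and 0.27, -0.32 and -0.68 in wild-type samples 7, 10 and 12. The groups overlapped, and the spread within each group was wide. The group means differed by 0.29, with p = 0.4 in an exact two-sided permutation test over the 6 samples.

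**Figure D2:**
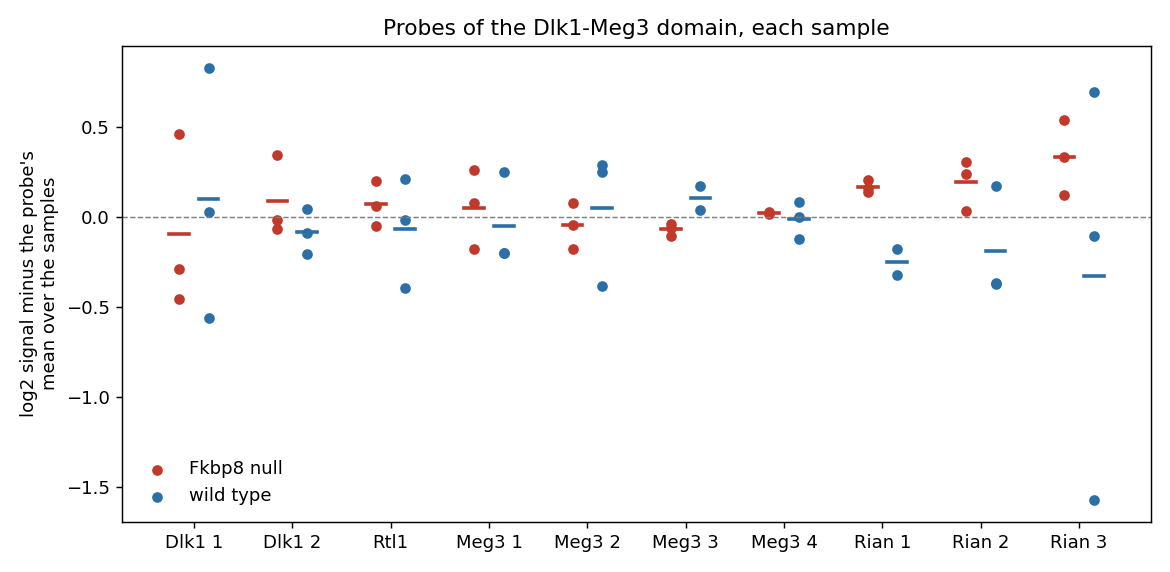
Log2 signal minus the probe's own mean over the samples (vertical axis) for probes of Dlk1, Rtl1, Meg3 and Rian, numbered from the brightest, with null samples in red, wild-type samples in blue and a bar at each group mean. The first Dlk1 probe spans 1.39, and the first Rian probe has its 3 null values above the 2 wild-type values left after quality flags.

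Mest encodes a protein of the alpha/beta hydrolase family that is read from the paternal copy in mesoderm. Its probe is annotated to both Mest and Copg2, genes that overlap tail to tail. The log2 signals were 11.99, 11.76 and 11.05 in null samples 6, 9 and 11 and 11.56, 11.53 and 11.97 in wild-type samples 7, 10 and 12. Null samples were at both ends, and the difference was -0.08 ± 0.24 (SE), with an interval from -0.63 to 0.46. It was 0.19 without null sample 11.

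Plagl1 encodes a zinc-finger transcription factor that restrains the cell cycle and acts on other imprinted genes. Its log2 signals were 9.65, 9.91 and 9.63 in null samples 6, 9 and 11 and 9.74, 10.75 and 9.69 in wild-type samples 7, 10 and 12. Wild-type sample 10 stood far above the other 5, which lay close together. The difference was -0.33 ± 0.26 (SE), the largest in size among the members, with an interval from -0.93 to 0.27. It was 0.01 without wild-type sample 10. That is the sample set apart above by Xist and the tissue markers, and the part of either in the Plagl1 value was not tested.

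Peg3 encodes a large zinc-finger protein read from the paternal copy. It was above background in null samples 9 and 11 and wild-type sample 12 and near background in the other 3. The log2 signals were 6.22, 6.72 and 6.53 in null samples 6, 9 and 11 and 6.29, 6.15 and 7.14 in wild-type samples 7, 10 and 12. Wild-type samples were at both ends. The probe was not tested, because no group had it above background on all its arrays.

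**Figure D3:**
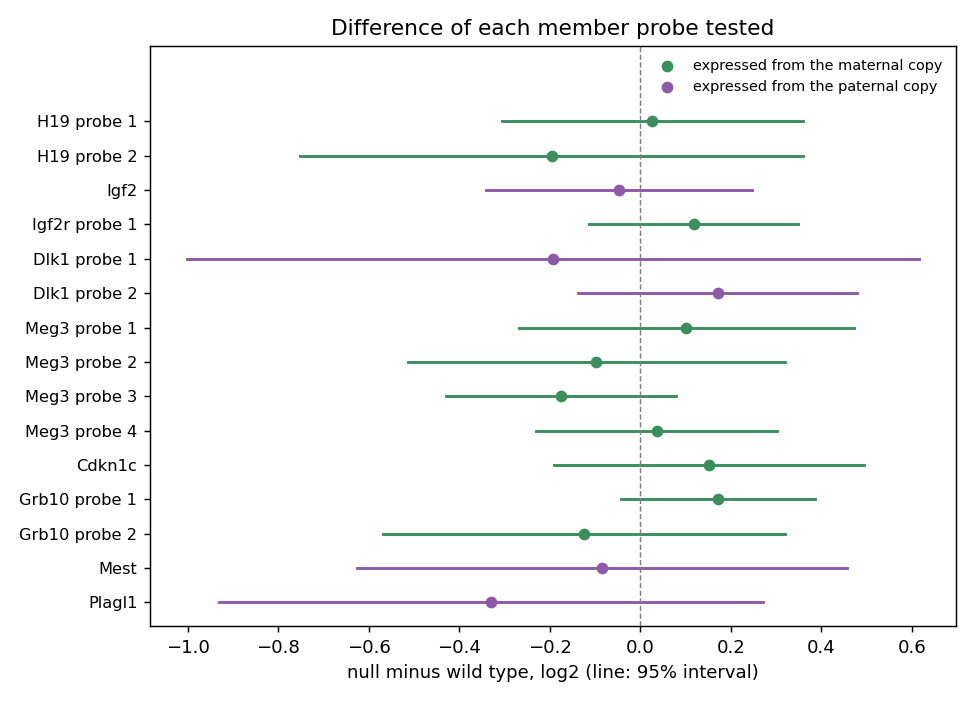
Log2 difference, null minus wild type (horizontal axis), of each of the 15 member probes tested, with its 95% interval from limma. Maternally expressed genes are green and paternally expressed genes purple, and every interval includes 0.

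The intervals give the sizes of change that these arrays leave possible. For the brightest probes of H19, Igf2, Igf2r and Grb10 they stayed within 0.39 on the log2 scale in either direction. The interval ran from -1.0 to 0.62 for the brighter Dlk1 probe, -0.93 to 0.27 for Plagl1 and -0.63 to 0.46 for Mest. The data of these probes are compatible with decreases or increases of up to these sizes. For the second Dlk1 probe the interval ran from -0.14 to 0.48. Where a gene had 2 or more tested probes, as H19, Dlk1, Meg3 and Grb10 did, their differences had both signs.

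The members varied between samples within both groups. Over the 13 probes measured on all arrays and tested, the median range from the lowest to the highest of the 6 samples was 0.55 on the log2 scale. It was 0.39 over the 20080 probes of all genes measured in the same way and 0.45 over the 4495 of those with a mean log2 signal of at least 9. Of the 13 probes, 5 were highest in null sample 9 and 4 in wild-type sample 12, and neither sample was lowest for any. Another 5 were lowest in null sample 11 and 5 in wild-type sample 10. The samples at the top and at the bottom therefore each included 1 of either genotype.

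**Figure D4:**
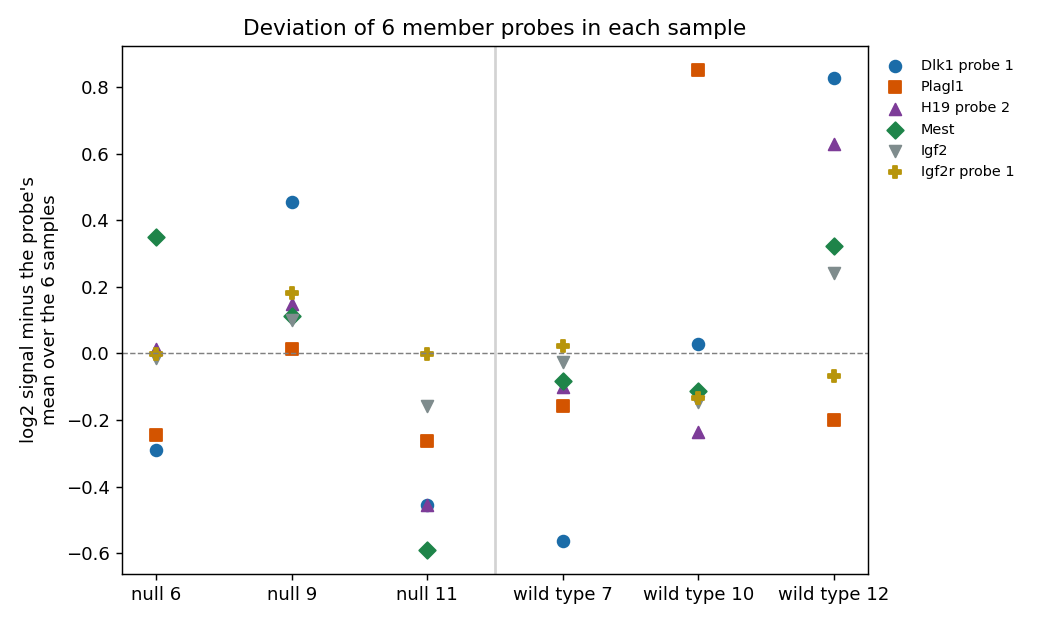
Log2 signal minus the probe's mean over the 6 samples (vertical axis) for 6 member probes in each sample (horizontal axis). Wild-type sample 12 holds the highest Dlk1 and H19 values shown, wild-type sample 10 the highest Plagl1 value, and null sample 11 the lowest Mest value.

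Other imprinted genes beside the members were read from a list. Of 24 listed genes within 1 Mb of a member, 21 were on the array and 16 were tested, each on its brightest probe. Their differences ran from -0.36 to 0.42 with a median of 0.07, 11 positive and 5 negative. An unadjusted limma p under 0.05 was found for 1 gene, against 3.08% of all probes tested. That gene was Rian, a maternally expressed noncoding RNA downstream of Meg3 that carries small nucleolar RNAs. Its brightest probe gave log2 signals of 12.11, 12.04 and 12.06 in null samples 6, 9 and 11 and of 11.73 and 11.58 in wild-type samples 7 and 12. The null samples lay above both wild-type samples, and the spot of wild-type sample 10 was left out because it was flagged as contaminated. The difference was 0.42 ± 0.11 (SE), with an unadjusted limma p of 0.00619 and an adjusted p of 0.9999, and it was 0.24 with that spot kept. The second Rian probe gave 10.14, 10.41 and 10.34 in the null and 9.74, 10.28 and 9.74 in the wild-type samples. Wild-type sample 10 lay within the null range there, and the difference was 0.38 ± 0.16 (SE), unadjusted p = 0.0466 in limma. The third probe was at 6.40 in wild-type sample 12 and at 7.87 to 8.66 in the other 5 samples. Its difference was 0.66 ± 0.48 (SE). It was 0.038 when wild-type sample 12 was left out and 1.20 when number 7 was. In the same domain Rtl1 differed by 0.14 ± 0.16 (SE), and by -0.026 without wild-type sample 10. Dio3 was not tested.

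Near H19, Igf2 and Cdkn1c on chromosome 7, Phlda2, which limits placental growth, differed by -0.36 ± 0.58 (SE), by 0.28 without null sample 9 and by -0.85 without wild-type sample 10. Kcnq1ot1, the noncoding RNA that silences the paternal copies around Cdkn1c, differed by 0.29 ± 0.14 (SE) on its brightest probe and -0.04 on another. Nap1l4 was at 0.12, and at -0.020 without wild-type sample 10. Cd81 was at 0.11, Osbpl5 at 0.08, Tspan32 at 0.05, Slc22a18 at 0.05, Tssc4 at -0.11 and Ascl2 at -0.06. Kcnq1 was near background on all arrays, as was Cobl beside Grb10. Beside Igf2r, Airn differed by 0.05, and by -0.019 without wild-type sample 10, and Slc22a3 by -0.09. Copg2, the neighbour of Mest, was at 0.08. Beside Peg3, Usp29 differed by 0.29 ± 0.14 (SE) on 1 probe and -0.10 on the other, and Zim1 by -0.02.

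Across the genome, a list of 26 other paternally expressed genes had 15 tested, 10 positive and 5 negative, with a median difference of 0.11. In this list and those that follow, each gene was counted on its brightest tested probe. None had an adjusted or an unadjusted limma p under 0.05, and 3.08% of all probes tested had an unadjusted one. Its smallest p values were those of Usp29, Kcnq1ot1 and Peg10, a retrotransposon-derived gene needed in the placenta, at -0.22 ± 0.13 (SE), or -0.085 without wild-type sample 12. A list of 30 other maternally expressed genes had 21 tested, 10 positive and 11 negative, with a median of -2.4e-04. In it 2 had an unadjusted limma p under 0.05 (Rian and Pon2), against 3.08% of all probes tested, and 0 an adjusted one. Pon2, a paraoxonase, had log2 signals of 8.61, 8.79 and 8.31 in the null and 8.09, 8.24 and 8.37 in the wild-type samples. The groups overlapped between null sample 11 and wild-type sample 12, and the difference was 0.33 ± 0.14 (SE). Ppp1r9a, the next by p, differed by -0.17 ± 0.15 (SE), and by -0.032 without wild-type sample 10. The median of all probes was 0.0022, and the median standard error of a probe was 0.12.

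The insulin-like growth factor axis, through which Igf2, Igf2r and Grb10 act, was read from a list of 22 further ligands, receptors, binding proteins and adaptors. Of these 16 were tested, 5 positive and 11 negative, with a median difference of -0.06. In limma 3 had an unadjusted p under 0.05, against 3.08% of all probes tested, and 0 an adjusted one. Igfbp5, a secreted protein that binds IGFs, had log2 signals of 13.23, 13.53 and 12.84 in null samples 6, 9 and 11 and of 12.61, 12.93 and 12.62 in wild-type samples 7, 10 and 12. Null samples 6 and 9 lay above all wild-type samples and null sample 11 did not. The difference was 0.48 ± 0.18 (SE), unadjusted p = 0.0271, and its second probe gave 0.35 ± 0.11 (SE), with no overlap between the groups. Pappa, a protease that cleaves IGF binding proteins, gave 8.07, 8.09 and 8.14 in the null and 7.52, 7.73 and 7.96 in the wild-type samples. All null samples lay above all wild-type samples, and the difference was 0.37 ± 0.12 (SE), unadjusted p = 0.0182. Irs1, an adaptor of the insulin and IGF1 receptors, differed by 0.35 ± 0.15 (SE), unadjusted p = 0.0474. The adjusted p of each was 0.9999. Irs4, Igfbp6 and Grb14 were near background on all arrays.

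Factors that set or keep imprints were read from a list of 21 genes. Of these 16 were tested, each on its brightest tested probe, 13 positive and 3 negative, with a median of 0.04. On these probes 0 had an adjusted or an unadjusted limma p under 0.05, against 3.08% of all probes tested for the unadjusted one. Dnmt3a, a methyltransferase that lays down new DNA methylation, had log2 signals of 9.95, 10.20 and 10.07 in the null and 10.04, 9.69 and 8.85 in the wild-type samples. Wild-type sample 12 was far below the others, and the difference was 0.55 ± 0.26 (SE), or 0.21 without it. Tet2, which oxidises methylated cytosine, differed by 0.15 ± 0.10 (SE). Zfp445, a zinc-finger protein that protects imprints, differed by 0.15 ± 0.13 (SE) on its brightest probe and 0.45 ± 0.17 (SE) on a dimmer one. The dimmer probe was not part of the counts above. Dnmt3l was near background on all arrays.

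The genes whose profile over the 6 arrays was most like those of Igf2 and H19 were found among 12271 singly named genes by the root mean square difference of centred log2 values. For Igf2 they were Vcl (0.024), Tbc1d1 (0.029) and Mgat4b (0.030), against a median of 0.19 over all genes. For H19 they included Ints1 (0.021) and Ctdspl (0.034), against a median of 0.22. These are a description of 6 arrays, with no test.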

How the data were processed

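Total RNA was amplified into biotin-labelled cRNA and hybridised to CodeLink arrays for the whole mouse genome (per the labels' protocols). Per the file headers, CodeLink Expression Analysis 4.1 quantified all arrays in 1 session. Whether the arrays were also hybridised and scanned together was not tested. The deposited raw intensity had its local background taken off (38 to 67 spots on each array are negative). For the normalized intensity, also deposited, the scanner software divided it by the array median. The table of values from the authors is this intensity scaled by a constant for each array, linear and not centred by gene, with column medians of 1.009, 1.003 and 1.004 for null samples 6, 9 and 11 and 1.008, 1.009 and 1.006 for wild-type samples 7, 10 and 12. The array medians were 2.33 to 3.80 times the negative control medians, and precision is limited by having 6 arrays.

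For this work, negative raw intensities were set to 0, 50 was added as an offset, and the log2 values were quantile normalized. Spots flagged irregular, contaminated or missing (391 to 543 per array) were left out, and 5 to 21 saturated spots kept. Probes above background on all arrays of at least 1 group, with at least 2 values per group, were fitted by limma 3.58.1 (lmFit, eBayes; R 4.3.3), with two-sided p-values adjusted by Benjamini-Hochberg across the 21243 probes. The fit was tested on simulated data. The offset compresses differences of dim probes. The fold of a gene near background in a group is a lower bound against its own signal or, where higher, the faintest signal that passed the background flag, array by array. Symbols came from the platform annotation (1 symbol for 21615 spots, several for 681, none for 12671), updated by Entrez number through RefSeq for GRCm38.p6 (21487 matched), with 499 more named by accession. The microRNA coordinates and promoter windows are on that same build. No genome build is given for the array data themselves in the sources used here. Several spots of 1 gene were reported separately, numbered from the brightest.

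The members and gene lists were chosen with earlier results of these data known. All members were named, the 3 genes of smallest p in each list, the listed genes within 1 Mb of a member, the 3 brightest and any near-background tissue markers, and Fkbp8, Xist and Eif2s3y. The second probes of named genes and Tm7sf3 were added after values were seen. Alternatives were the offset, normalization, value source, flags, filter on dim probes and leaving out each sample. A gene among those with a profile like that of H19 is not reported here.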

Additional observations from a re-analysis of the deposited data

How the results depend on the processing

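The labels give no pairing of null with wild-type samples, and the groups share no sample numbers, so no paired analysis was made. No member probe was called under any of the 15 alternatives, and the lowest adjusted p of a member was 0.788 without wild-type sample 10. Over all genes, limma called 1 probe as reported. It called 2 with every spot kept, 0 with a floor of 1 and no offset, with median scaling, with cyclic loess, with the scanner's normalized intensity, with the authors' value table or with the stricter background filter, and 0 to 1 when each sample was left out. The median member difference ran from -0.12 to 0.09 when each sample was left out. Among member probes, changes of processing kept the direction in 131 values and turned it in 4, all of the brighter H19 probe. The kept values include those from changes of the filter on dim probes. These could not turn a direction, since they alter only which probes are fitted. The difference of the brighter H19 probe was -0.038 with median scaling, -0.10 with cyclic loess, -0.026 with the normalized intensity and -0.028 with the authors' table. H19 over Igf2 changed to -4.6e-04 with median scaling, -4.5e-04 with the normalized intensity and -4.5e-04 with the authors' table, and Nap1l4 to -0.056 with every spot kept. The cause was not tested. Leaving out each sample turned the direction in 14 of the members' values. The ranges were -0.52 to 0.17 for Dlk1, -0.25 to 0.11 for the dimmer Grb10 probe, -0.12 to 0.15 and -0.36 to 0.069 for H19, -0.13 to 0.063 for Igf2, -0.28 to 0.19 for Mest and -0.52 to 0.013 for Plagl1. For Meg3 they were -0.0015 to 0.25 on the first probe, -0.31 to 0.023 on the second and -0.016 to 0.080 on the fourth. H19 over Igf2 ran from -0.022 to 0.21 and Meg3 over Dlk1 from 0.08 to 0.55. Among neighbours, repeated after the data were seen, the ranges were -0.019 to 0.088 for Airn, -0.020 to 0.31 for Nap1l4, -0.052 to 0.15 for Osbpl5, -0.85 to 0.28 for Phlda2, -0.026 to 0.26 for Rtl1, -0.046 to 0.13 for Slc22a18 and -0.20 to 0.010 for the dimmer Usp29 probe. Peg3 was too near background on 3 of 6 arrays to be tested.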

Other observations

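Phlda2, the maternally expressed gene beside Cdkn1c, varied over a range of 2.37 on the log2 scale, more than any member. Its log2 signals were 11.24, 9.13 and 10.85 in null samples 6, 9 and 11 and 11.50, 9.79 and 11.01 in wild-type samples 7, 10 and 12. A sample of each genotype, null sample 9 and wild-type sample 10, was low. The forebrain marker Lhx2 was high in the same 2 samples, with log2 signals of 8.44 and 9.15 against 6.87 to 7.61 in the other 4. Over the 10 forebrain and midbrain markers tested, the mean of the centred values was 0.05 in null sample 9 and 0.33 in wild-type sample 10. It was -0.13 to -0.03 in the other 4 samples. The maternally expressed Asb4 was likewise 7.48 and 7.84 in null sample 9 and wild-type sample 10, against 6.64 to 6.96. The centred mean of the tail bud markers was -0.20 and -0.71 in these 2 samples, against 0.12 to 0.48 in the other 4. That of the primitive erythroid markers was 0.35 and 0.71, against -0.61 to 0.06. The somite and neural tube means differed in sign between the 2 samples. The part of any of these tissues in the Phlda2 values was not tested. Lhx2 and Asb4 were picked after their values were seen, so this is a description of 6 arrays with no test.

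A spot that the array file describes as Gtl2, another name of Meg3, carries no symbol in the platform annotation and was not counted as a member. Its difference was 0.26 ± 0.14 (SE), with an unadjusted limma p of 0.113 (adjusted p = 0.9999), against 0.10 for the brightest Meg3 probe. Another spot that the array file describes as an H19 clone is annotated to Nckap1 and was not used for H19.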
